A study of Mus musculus with 12 samples.

Results

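The entries described here are the 6 precursor genes of the microRNAs miR-9 and miR-7 in mouse: Mir9-1, Mir9-2, Mir9-3, Mir7-1, Mir7-2 and Mir7b. They were taken by symbol from a table of 4529 non-coding transcripts, of which 1116 symbols are miRNA precursors, and all 6 were found in each of the 12 libraries. The libraries are small RNA libraries made from total RNA of stem-like medulloblastoma cells, with cerebellum as the source tissue. All 12 share the genotype Math1-Cre; SmoM2, in which Cre driven by the promoter of Math1, a transcription factor of granule neuron progenitors, switches on an active form of Smoothened, the signal transducer of the Hedgehog pathway. The 4 control libraries carried the guide sgGal4-4, against a yeast gene that mice lack. The 4 Miat libraries were labelled as a knockdown of Miat, a long non-coding RNA, with the guide sgMiat-6 (libraries 6-1 and 6-2) or sgMiat-96 (libraries 96-1 and 96-2). The 4 Mtdh libraries were labelled as a knockdown of Mtdh, the protein-coding gene of metadherin, with sgMtdh-1 (libraries 1-1 and 1-2) or sgMtdh-2 (libraries 2-1 and 2-2). The labels give no age and name no separate cultures behind the libraries of 1 guide; p-values here therefore rest on variation among libraries that could be technical alone.

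MicroRNAs are cut from a hairpin precursor into short mature strands, named 5p and 3p after the arm they come from. The seed, bases 2 to 8 of the mature strand, pairs with target messenger RNAs and so largely decides which of them are repressed. miR-9 is made in large amounts by neural progenitors of the developing brain, where its targets include the nuclear receptor Tlx and the repressor REST. miR-7 is known in brain and pancreas, where the circular RNA Cdr1as binds it and the long RNA Cyrano promotes its decay. In both cases several genes at different places in the genome yield the same or nearly the same mature strand.

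The sequences show which entries a short read can tell apart. All 6 hairpins and their 7 distinct mature strands were matched in the RefSeq miRNA table (build GRCm38.p6). The mature strands are given with the seed in capitals.
miR-9-5p: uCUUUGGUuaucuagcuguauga
miR-9-3p: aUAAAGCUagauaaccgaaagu
miR-7a-5p: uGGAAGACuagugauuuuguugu
miR-7b-5p: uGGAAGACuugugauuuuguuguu
miR-9-5p and miR-9-3p are each listed for all 3 of Mir9-1, Mir9-2 and Mir9-3. miR-7a-5p is listed for both Mir7-1 and Mir7-2. miR-7b-5p comes from Mir7b, has the same seed as miR-7a-5p, is longer at its 3′ end, and differs by A10U, the base of miR-7a-5p first and positions counted from 1 at the 5′ end. No other mature strand of the table shares these seeds.

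The hairpins below show where the copies of each miRNA match, with both mature arms in capitals.
Mir9-1: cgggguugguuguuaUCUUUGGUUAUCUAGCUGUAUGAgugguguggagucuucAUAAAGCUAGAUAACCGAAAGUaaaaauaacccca
Mir9-2: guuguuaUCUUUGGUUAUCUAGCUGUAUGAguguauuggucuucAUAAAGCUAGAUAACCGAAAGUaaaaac
Mir9-3: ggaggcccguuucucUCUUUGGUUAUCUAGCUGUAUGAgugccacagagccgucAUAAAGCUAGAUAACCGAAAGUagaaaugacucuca
Mir7-1: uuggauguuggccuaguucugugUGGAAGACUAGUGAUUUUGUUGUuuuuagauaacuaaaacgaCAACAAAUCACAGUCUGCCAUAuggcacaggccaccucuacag
Mir7-2: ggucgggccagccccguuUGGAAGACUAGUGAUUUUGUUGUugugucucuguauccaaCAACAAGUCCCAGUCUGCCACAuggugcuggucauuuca
The 3 miR-9 hairpins have 2 runs of 18 or more bases in common, the longer of 26 bases, and these runs hold both arms. Mir7-1 and Mir7-2 share 1 such run, of 24 bases over the 5p arm, while their 3p arms differ. Mir7b shares no run of 18 bases with both of them.

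The genes lie apart from each other. In GRCm38.p6, Mir9-1 is at chr3:88215598-88215686 on the plus strand, in an intron of the long non-coding gene Gm3764. Mir9-2 is at chr13:83738814-83738885 on the plus strand and overlaps an exon of the long non-coding gene C130071C03Rik. Mir9-3 is at chr7:79505264-79505353 on the plus strand, in an intron of its host gene Mir9-3hg. Mir7-1 is at chr13:58392779-58392886 on the minus strand, in an intron of Hnrnpk, which encodes a ribonucleoprotein present in most cells. Mir7-2 is at chr7:78888277-78888373 and Mir7b at chr17:56242988-56243098, both on the plus strand and outside any annotated gene.

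Depth limits all that follows. The libraries held 23318 to 164537 counts in all and 1015 to 7287 counts on miRNA precursors. The ribosomal precursor Rn45s took 53.0% to 55.4% of the counts of control libraries and 63.7% to 82.7% of those of the others. miRNA precursors took 6.91% to 7.29% of all counts in the control libraries, 1.67% to 4.23% in the Miat libraries and 3.50% to 5.25% in the Mtdh libraries. The long RNA Miat had 49 counts in the library labelled Miat 6-1 and 30 in Miat 6-2, against 0 to 1 in the control and sgMiat-96 libraries and 0 to 2 in the Mtdh libraries. That order goes against the label of the sgMiat-6 libraries, although counts of short fragments are no gauge of how much of a long RNA is present, so the fold changes that involve the Miat group are also given without them. Mtdh is not among the transcripts of the table. Every library is called by its label throughout.

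miR-9 was counted on all 3 of its genes and nearly equally. Mir9-1 had 18, 23, 25 and 36 counts in control libraries 1 to 4. The Miat libraries had 49 (6-1), 28 (6-2), 12 (96-1) and 12 (96-2) Mir9-1 counts, and the Mtdh libraries had 0 (1-1), 22 (1-2), 19 (2-1) and 6 (2-2). Counts of Mir9-2 were 18, 21, 29 and 36 in the controls, 44, 23, 12 and 10 in the Miat libraries and 1, 17, 17 and 6 in the Mtdh libraries, in the same order. For Mir9-3 the controls had 18, 21, 27 and 34, the Miat libraries 44, 24, 12 and 10, and the Mtdh libraries 0, 17, 19 and 9. In 2 of 12 libraries the 3 copies had exactly the same count, and the largest gap between copies within a library was 5 counts.

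miR-7 was less abundant and also split evenly over its counted genes. Mir7-1 had 10, 5, 7 and 18 counts in the controls, 4, 15, 19 and 2 in the Miat libraries and 7, 17, 18 and 11 in the Mtdh libraries. Mir7-2 had 7, 6, 4 and 16 counts in the controls, 3, 12, 16 and 2 in the Miat libraries and 2, 17, 15 and 9 in the Mtdh libraries. Mir7-2 exceeded Mir7-1 in no library other than control 2. CPM here stands for counts per 1000000 counts. Mir7b had 0 counts in all 12 libraries, 0 of 40812 miRNA counts. With the libraries pooled and a count of 0 taken to allow 3 counts, that allows up to 73.5 CPM of miRNA counts. This treats counts as independent reads, and the limit is higher where reads were counted more than once.

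**Figure D1:**
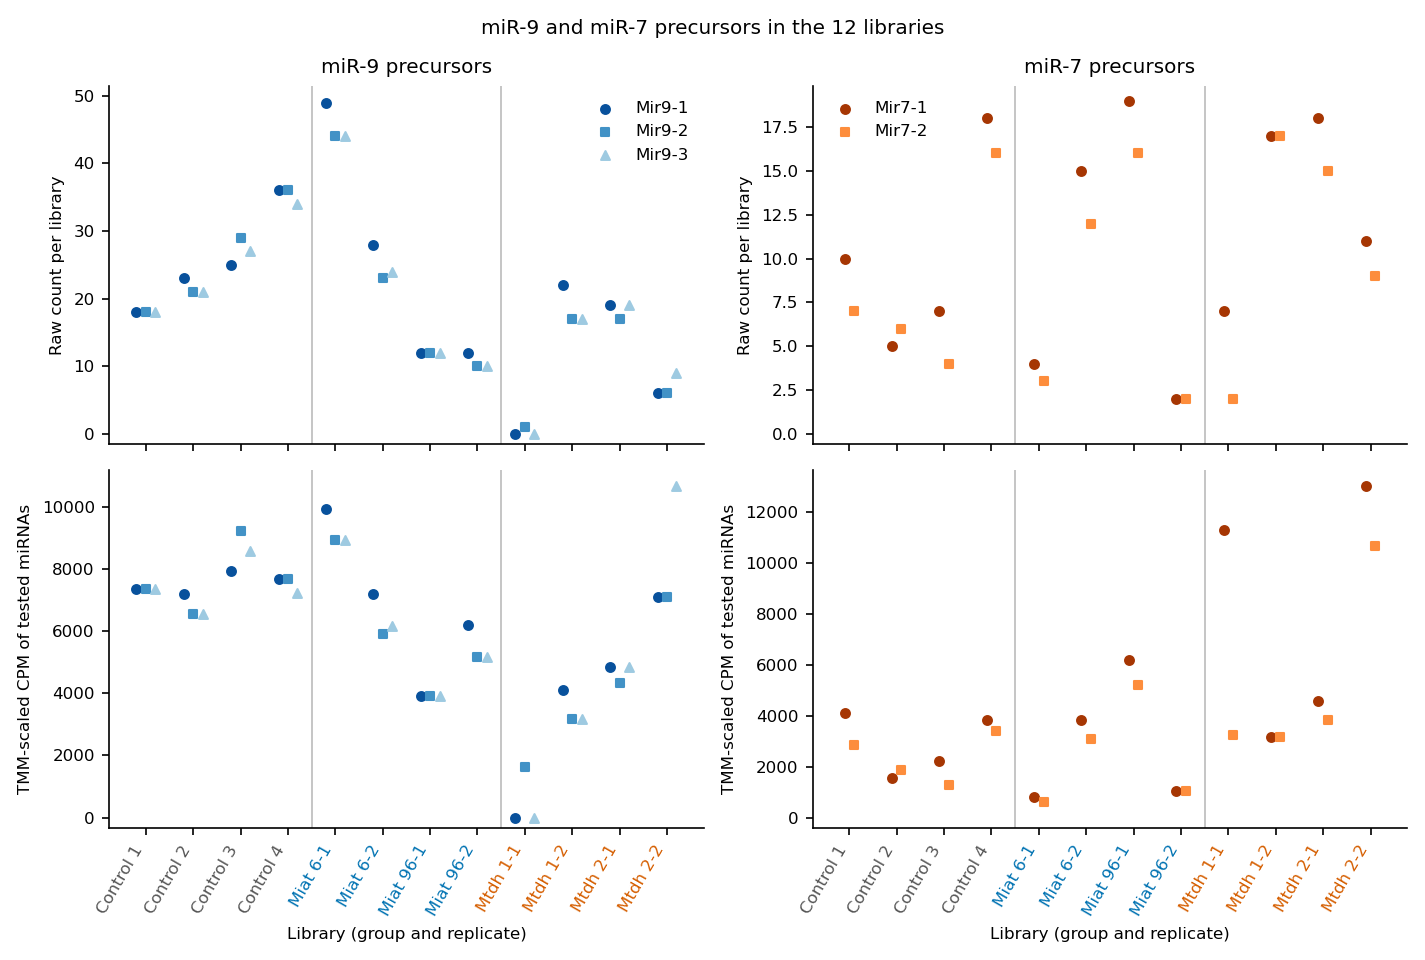
Raw counts (top) and TMM-scaled CPM of tested miRNAs (bottom) of the 3 miR-9 precursors (left) and the 2 counted miR-7 precursors (right), 1 point per library, groups separated by grey lines. Copies of a miRNA lie within 5 counts of each other in every library, and the highest Mir7-1 values on the scaled axis, 11289 and 13020, come from 7 and 11 counts.

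How closely the copies followed each other was set beside other miRNAs with several genes. These were 11 sets in all that share a mature strand, hold at least 40 counts and have counts on every copy. Sets with a copy at 0 in all libraries were left out, so the ranks below do not cover such uneven sets. Over the 12 libraries the counts of the 3 miR-9 copies differed from an even split with a chi-square of 5.57 on 24 degrees of freedom, or 0.232 per degree, where counts drawn independently would give about 1. This was the lowest value of the 11 sets, and miR-9 is the only set of the 11 whose copies share all their mature strands. Mir7-1 and Mir7-2 gave 5.54 on 12 degrees, or 0.462 per degree, the third lowest. In all, 4 of the 11 sets were below 1, and the copies of miR-181a, which also share only their 5p strand, were highest at 27.5. Another multi-gene miRNA shows the same count on several entries outright: 8 of the 9 entries of Mir684-1 had equal counts in all 12 libraries, 6 of which held any. How reads that match several places were counted is not given in the sources used here. The 5 counted entries are therefore treated here as about 2 separate measurements, miR-9 and miR-7, and agreement between copies is not read as a repeat of a result. Whether copies shared reads was not tested, and the 3p arms of Mir7-1 and Mir7-2 differ.

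**Figure D2:**
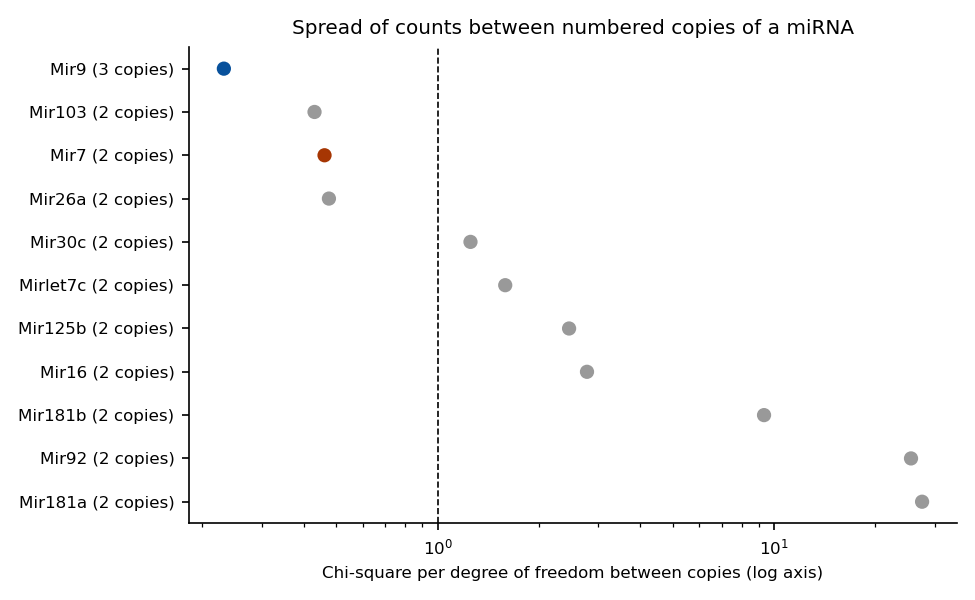
Chi-square per degree of freedom between the numbered copies of each of 11 miRNAs that share a mature strand and have counts on every copy. The axis is logarithmic, with the number of copies beside each name and a dashed line at 1. miR-9 (blue) is lowest at 0.232, miR-7 (brown) is at 0.462 and miR-181a is highest at 27.5.

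The division between copies was near even in every group. Mir9-1 took 33.4% ± 1.89 (SD, n = 4) of miR-9 counts in the controls, 36.0% ± 1.93 (n = 4) in the Miat libraries and 34.1% ± 5.37 (n = 3) in the Mtdh libraries with at least 10 counts. The exact permutation test of Miat against control gave a difference of 2.60 percentage points with p = 0.143 (two-sided, adjusted p = 0.857 over 6 tests). Mir7-1 took 55.2% ± 7.84 (n = 4) of miR-7 counts in the controls, 54.9% ± 0.898 (n = 2) in the Miat libraries and 53.2% ± 2.76 (n = 3) in the Mtdh libraries. The 6 exact permutation tests gave adjusted p from 0.857 to 1, but with so few libraries the smallest unadjusted p they allow is 0.0286 to 0.2, so no single difference could have passed after adjustment and these tests say nothing of whether the division was stable. The direction of 5 of the 6 differences turned when a library was left out or when sparsely counted libraries were added.

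On the deposited FPKM scale, which divides by transcript length and by the total over all classes, miR-9 stood above miR-7 in the control libraries. Mir9-2 was highest, at 7593 ± 1419 FPKM (SD, n = 4). Mir9-1 at 5995 ± 537 and Mir9-3 at 5859 ± 913 FPKM followed and overlapped each other and Mir9-2. The higher level of Mir9-2 goes with its shorter entry, 72 bases against 89 and 90, since its counts are close to those of the others. Mir7-1 at 1931 ± 840 and Mir7-2 at 1717 ± 725 FPKM overlapped each other and lay below every miR-9 value of the controls. In the Mtdh libraries Mir7-1 had 2780, 1021, 1101 and 2982 FPKM and Mir9-1 had 0, 1604, 1411 and 1974 FPKM. Mir9-1 thus stayed above Mir7-1 in Mtdh 1-2 and 2-1 and lay below it in Mtdh 1-1 and 2-2, the shallowest of the 4. In bulk libraries of this kind, fewer cells that make a miRNA and less of it per cell cannot be told apart.

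For the tests, libraries were scaled to each other over the 29 miRNAs with enough counts (edgeR's TMM), among them all 5 counted members. Mir7b was not tested. In scaled CPM of tested miRNAs, 3 counts correspond to between 558 and 4838 CPM depending on the library, with Mtdh 1-1 at 4838 and Mtdh 2-2 at 3551.

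In Miat libraries neither miRNA differed from the controls beyond the spread between libraries. Mir9-1 was at 7355, 7185, 7940 and 7657 CPM in the controls and at 9935, 7174, 3905 and 6199 CPM in the Miat libraries. The Miat values lie on both sides of the controls. The Mir9-1 means were 7534 ± 334 and 6803 ± 2497 CPM (SD, n = 4 each), a log2 fold change of -0.13 (SE 0.40, edgeR adjusted p = 0.906). Mir9-2 was at -0.34 (SE 0.35, 0.633) and Mir9-3 at -0.27 (SE 0.44, 0.798). Mir7-1 ranged more widely, at 4086, 1562, 2223 and 3829 CPM in the controls and 811, 3843, 6183 and 1033 CPM in the Miat libraries. Its log2 fold change was 0.03 (SE 0.64, edgeR adjusted p = 0.979), and that of Mir7-2 was 0.05 (SE 0.64, 0.979). With edgeR, 0 of the 5 members passed at an adjusted p of 0.05, where 7 of the 29 tested miRNAs did, 24.1%, and 0 of the 5 had an unadjusted p under 0.05. DESeq2 and limma-voom also called 0 of the 5, against 27.6% and 31% of all. Without the sgMiat-6 libraries the log2 fold changes were -0.74 for Mir9-1, -0.92 for Mir9-2, -0.87 for Mir9-3, 0.21 for Mir7-1 and 0.30 for Mir7-2. There 0 members and 10% of all tested miRNAs were called. The Rn45s share as a covariate moved the values to 2.43 for Mir7-1 and 1.85 for Mir7-2. The miR-9 copies moved to between -0.0102 and 0.50, also with 0 members called (6.9% of all). Every Miat library had a higher Rn45s share than every control, so this fit cannot separate the share from the group.

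The 2 Miat guides gave values of opposite sign for most copies, and libraries of the same guide also differed. With sgMiat-6, the log2 fold changes against control were 0.19, -0.05 and 0.03 for Mir9-1, Mir9-2 and Mir9-3 and -0.39 and -0.44 for Mir7-1 and Mir7-2. With sgMiat-96, they were -0.61, -0.78 and -0.73 for the miR-9 copies and 0.42 and 0.50 for the miR-7 copies. None passed for either guide, where 24.1% and 27.6% of the tested miRNAs did. In the comparison of the 2 guides with each other, the miR-9 copies differed by -0.74 to -0.80 and the miR-7 copies by 0.81 and 0.94, and none passed (smallest edgeR adjusted p = 0.343, with 6.9% of all tested miRNAs called). The counts behind these values were uneven within each guide: Mir7-1 had 4 counts in Miat 6-1 and 15 in Miat 6-2, and 19 in Miat 96-1 and 2 in Miat 96-2.

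In Mtdh libraries miR-9 was lower and miR-7 higher than in the controls relative to other miRNAs, with the sign of miR-7 turned when scaled to the totals of all classes and that of Mir9-3 with the Rn45s share as a covariate, and neither difference passed. Mir9-1 was at 0, 4094, 4833 and 7102 CPM in the Mtdh libraries, against 7185 to 7940 CPM in the controls. All 4 Mtdh values lay below all 4 control values, but narrowly, since the highest Mtdh value of 7102 stands beside a lowest control of 7185. Such a lack of overlap was seen for Mir9-1 alone of the 5 members, and for 24.1% of all tested miRNAs. The means were 4007 ± 2962 and 7534 ± 334 CPM (SD, n = 4 each), a log2 fold change of -0.81 (SE 0.44, edgeR adjusted p = 0.182). Mir9-2, at 1613, 3164, 4324 and 7102 CPM in the Mtdh libraries and 7355, 6560, 9211 and 7657 CPM in the controls, overlapped through Mtdh 2-2 alone. Its log2 fold change of -0.94 (SE 0.39) had an unadjusted p of 0.0291 and an edgeR adjusted p of 0.0938. Mir9-3 was at 0, 3164, 4833 and 10652 CPM in the Mtdh libraries, where Mtdh 2-2 lay above every control, and its log2 fold change was -0.71 (SE 0.49, adjusted p = 0.274).

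Mir7-1 in the Mtdh libraries was led by the libraries with fewest counts. It was at 11289, 3164, 4578 and 13020 CPM there, against 1562 to 4086 CPM in the controls. The 2 highest values, in Mtdh 1-1 and Mtdh 2-2, came from 7 and 11 counts in the 2 shallowest of these libraries, and Mtdh 1-2 lay inside the control range. Mir7-2 was at 3225, 3164, 3815 and 10652 CPM, against 1270 to 3403 CPM in the controls, and only Mtdh 2-2 stood far above them. The log2 fold change of Mir7-1 was 1.17 (SE 0.66, edgeR adjusted p = 0.182), and that of Mir7-2 was 0.95 (SE 0.65, 0.274). With the Rn45s share as a covariate they were 3.40 (0.0525) and 2.68 (0.154), with 0 members and 3.45% of all tested miRNAs called. Every Mtdh library had a higher Rn45s share than every control, so this fit cannot separate the share from the group. Without the libraries under 2000 miRNA counts, which also drops Miat 96-2, Mir7-1 was at 0.60 (0.624) and Mir9-2 at -0.85 (0.235). Of the 5 members 0 passed in Mtdh libraries with edgeR, and 1 had an unadjusted p under 0.05. Of the 29 tested miRNAs 7 passed, again 24.1%. DESeq2 and limma-voom called 0 of the 5, against 24.1% and 20.7% of all. Mir9-2 passed when only the Mtdh and control groups were fitted (29.2% of all called). It also passed without Miat 6-1 (22.6%) or Mtdh 2-2 (17.5%), and under the scalings given with the totals of all classes and in the part on processing.

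By guide, a member passed with sgMtdh-1 only. There Mir9-2 fell with a log2 fold change of -1.41 (SE 0.46, edgeR adjusted p = 0.0470), while Mir9-1 was at -1.19 (SE 0.50, 0.0948) and Mir9-3 at -1.51 (SE 0.53, 0.0601). This was 1 call among 5 members, where 17.2% of the tested miRNAs were called. It rests on Mtdh 1-1, with 1, 0 and 0 counts on Mir9-2, Mir9-1 and Mir9-3, and Mtdh 1-2, with 17, 22 and 17. Without any 1 of the 4 controls no member passed for sgMtdh-1, where 5.56% to 13.5% of all tested miRNAs did. Without Mtdh 2-1 no member passed either (16.2% of all). Without Miat 6-1 (32.3% of all) or without Mtdh 2-2 (25%), 3 passed. Mir9-2 and Mir9-3 passed without Miat 96-1 (25%). These fits tested 31 to 41 miRNAs in place of 29, as the filter was applied anew. Leaving out Mtdh 1-1 or Mtdh 1-2 leaves 1 sgMtdh-1 library, so calls from those fits are not given. With sgMtdh-2 the miR-9 copies were at -0.45, -0.57 and -0.15 and the miR-7 copies at 1.32 and 1.30, and 0 of 5 passed against 17.2% of all. No difference between the 2 Mtdh guides passed for a member, although all 5 were higher with sgMtdh-2, the miR-7 copies by 0.53 and 0.90 and the miR-9 copies by 0.74 to 1.36 on the log2 scale. Mir9-3 was at 1.36 (SE 0.63, unadjusted p = 0.0460, edgeR adjusted p = 0.272). Between these guides 0 of the 29 tested miRNAs passed, 0%, with 5 at an unadjusted p under 0.05.

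**Figure D3:**
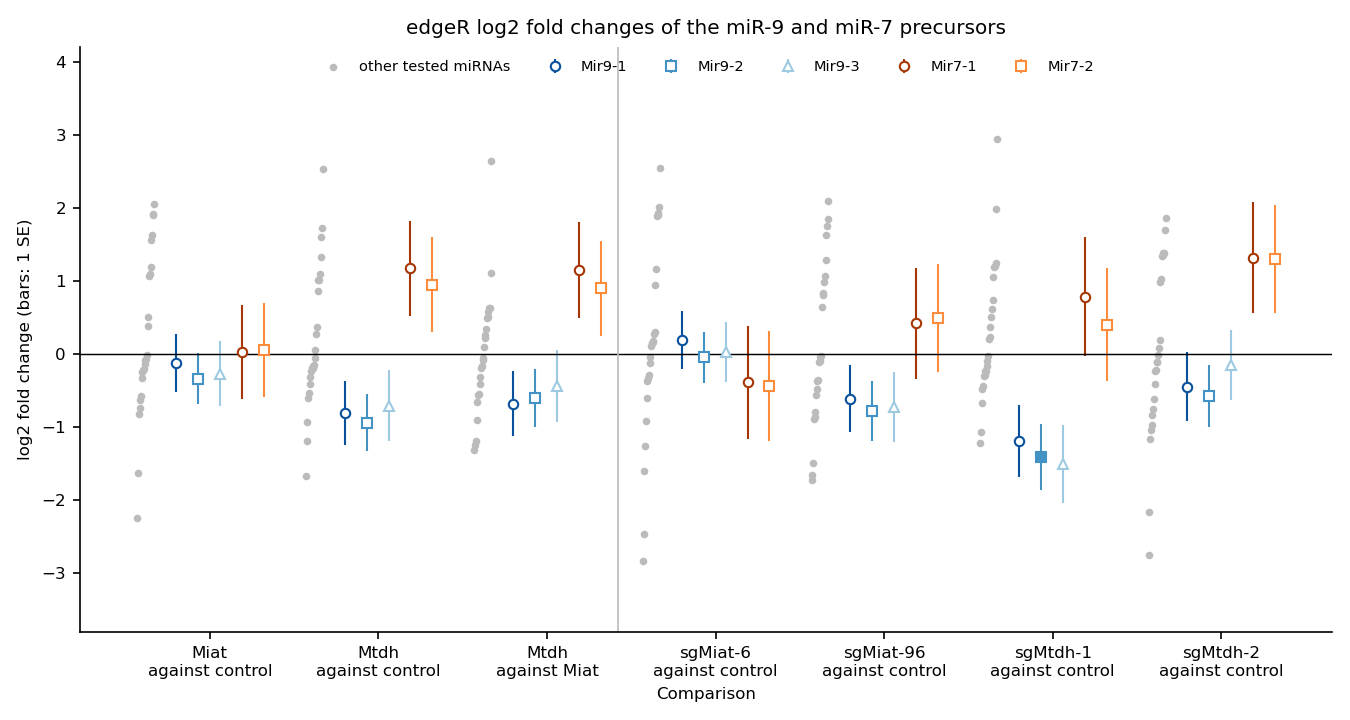
edgeR log2 fold changes with 1 SE for the 5 tested members (blue for miR-9, brown and orange for miR-7) and for the other tested miRNAs (grey points), in the 3 comparisons of groups and the 4 of a guide with control. Filled symbols have an adjusted p under 0.05. Mir9-2 with sgMtdh-1, at -1.41, is the only filled member, and members lie within the range of the grey points apart from Mir9-2 and Mir9-3 with sgMtdh-1.

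Set against the Miat libraries, the Mtdh libraries had lower miR-9 and higher miR-7 values, none of which passed, and the values of miR-9 depended on which guides were included. Mir9-1 was at -0.68, Mir9-2 at -0.60 and Mir9-3 at -0.44, and Mir7-1 at 1.14 and Mir7-2 at 0.90 (edgeR adjusted p from 0.352 to 0.493). Without the sgMiat-6 libraries these were -0.19, -0.13 and 0.0522 for the miR-9 copies and 0.88 and 0.56 for the miR-7 copies (adjusted p from 0.539 to 0.942). Without the sgMtdh-1 libraries the miR-9 copies were at -0.11, -0.0124 and 0.35. No member passed and 6.9% of the tested miRNAs did, and 0 of the 5 had an unadjusted p under 0.05. DESeq2 and limma-voom called 0 of the 5, against 3.45% of all with each. No member separated the groups without overlap in scaled CPM, which held for 3.45% of the tested miRNAs here. In Miat against control that count was also 0 of 5, against 27.6%. The 3 comparisons share libraries, so their values do not bear on each other independently. Over all 29 tested miRNAs the median log2 fold change was -0.08 for Miat, -0.15 for Mtdh and -0.08 for Mtdh against Miat.

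With the copies of every numbered miRNA summed, which left 24 tested miRNAs, miR-9 was at -0.55 (edgeR adjusted p = 0.325) and miR-7 at -0.29 (0.717) in the Miat libraries. In the Mtdh libraries miR-9 was at -1.06 (SE 0.45, unadjusted p = 0.0302, adjusted p = 0.0850) and miR-7 at 0.90 (0.253). Mtdh against Miat gave -0.52 (0.492) for miR-9 and 1.19 (0.251) for miR-7. Neither passed in any of the 3, where 29.2%, 20.8% and 4.17% of the summed miRNAs did. Without the sgMiat-6 libraries miR-9 was at -0.70 (0.476) and miR-7 at 0.24 (0.820) in Miat, and at -0.27 (0.796) and 0.80 (0.473) in Mtdh against Miat. A sum adds near-equal copies and so may count the same reads more than once.

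The ratio of miR-9 to miR-7 within a library does not depend on how libraries are scaled. A lower share says only that miR-9 was lower relative to miR-7, not that the levels of the 2 moved in opposite directions. Taking Mir9-1 and Mir7-1, the most counted copy of each, miR-9 made up 64.3%, 82.1%, 78.1% and 66.7% of their summed counts in the controls. In the Mtdh libraries this share was 0% (1-1), 56.4% (1-2), 51.4% (2-1) and 35.3% (2-2), so all 4 lay below all 4 controls. That is common in these libraries: 114 of 403 pairs of tested miRNAs, 28.3%, had no overlap between Mtdh and control in such a share. The Miat libraries spread on both sides, at 92.5% (6-1), 65.1% (6-2), 38.7% (96-1) and 85.7% (96-2). Means over libraries were 72.8% ± 8.67 (SD, n = 4) for control, 70.5% ± 24.2 for Miat and 35.8% ± 25.5 for Mtdh. With the counts of a group pooled, the share was 71.8% in the controls (exact 95% interval 63.7 to 79.1), 71.6% in the Miat libraries (63.4 to 78.9) and 47.0% in the Mtdh libraries (36.9 to 57.2). Pooled by guide, sgMiat-6 stood at 80.2% and sgMiat-96 at 53.3%, and sgMtdh-1 at 47.8% and sgMtdh-2 at 46.3%. The pooled Mtdh values hide libraries at 0% and 56.4% for sgMtdh-1 and at 51.4% and 35.3% for sgMtdh-2. These intervals cover counting error only and treat reads as independent. The other 5 pairings of a miR-9 with a miR-7 copy also kept the Mtdh and control libraries apart, as near-equal copies must; with Mir9-3 and Mir7-2, the Mtdh libraries reached 55.9% and the controls began at 68.0%. The signs of miR-9 and miR-7 in Mtdh libraries were the reason for examining these genes, so the share is given as a description with no test.

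**Figure D4:**
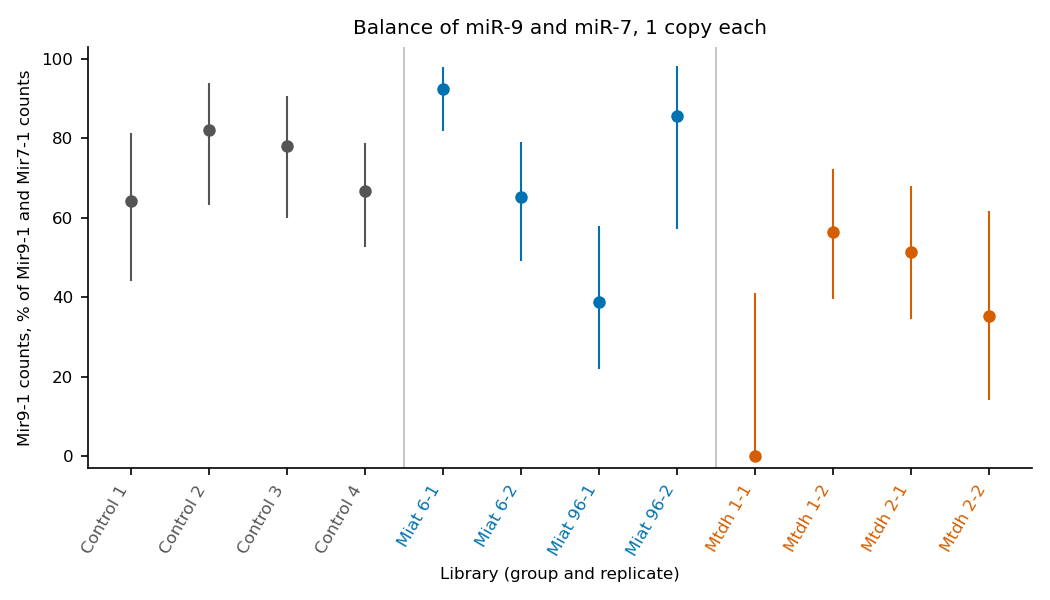
Mir9-1 counts as a percentage of Mir9-1 and Mir7-1 counts in each library, with exact 95% binomial intervals, coloured by group (grey control, blue Miat, orange Mtdh). The 4 Mtdh libraries lie between 0 and 56.4%, below the controls at 64.3% to 82.1%, and the Miat libraries run from 38.7% to 92.5%. The interval of Mtdh 1-1 (0 to 41.0) lies below that of every control. That of Mtdh 2-2 (14.2 to 61.7) lies below that of control 2 (63.1 to 93.9). All other intervals of an Mtdh and a control library overlap.

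The levels of miR-9 and miR-7, apart from their ratio, depended on what the libraries were scaled to. Relative to other miRNAs, as above, miR-9 in the Miat libraries was near the control level. Relative to the counts of all classes, as in the deposited FPKM, it was lower: Mir9-1 had 5903, 5303, 6574 and 6200 FPKM in the controls and 3346, 2593, 1614 and 1603 FPKM in the Miat libraries, with no overlap. The same was true of Mir9-2 and Mir9-3, and of 58.6% of the tested miRNAs. In Mtdh libraries all 3 miR-9 copies were also below all controls on this scale, and 48.3% of the tested miRNAs had no overlap there, while in Mtdh against Miat no member and 3.45% of the tested miRNAs stood apart. An edgeR fit scaled to the totals of all classes, added after the data were seen, called the 3 miR-9 copies in both comparisons with control. For Miat the log2 fold changes were -1.36, -1.57 and -1.50 (adjusted p = 0.0146, 0.00330 and 0.0125), where 55.2% of the tested miRNAs were called and their median was -1.32. For Mtdh they were -2.11, -2.25 and -2.03 (adjusted p = 0.00128, 0.000591 and 0.00289), where 51.7% were called and the median was -1.38. Mir7-1 and Mir7-2 did not pass on this scale, at -1.10 and -1.07 for Miat and -0.15 and -0.35 for Mtdh. Without the sgMiat-6 libraries the miR-9 copies were at -1.89, -2.04 and -1.99 in Miat (adjusted p = 0.0373, 0.0167 and 0.0384), where 35% of 40 tested miRNAs were called. In Mtdh against Miat no member passed and 3.45% of the tested miRNAs did. The lower share of miRNA in these libraries and their higher Rn45s share, given above, move with this result, and their part in it was not tested.

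**Figure D5:**
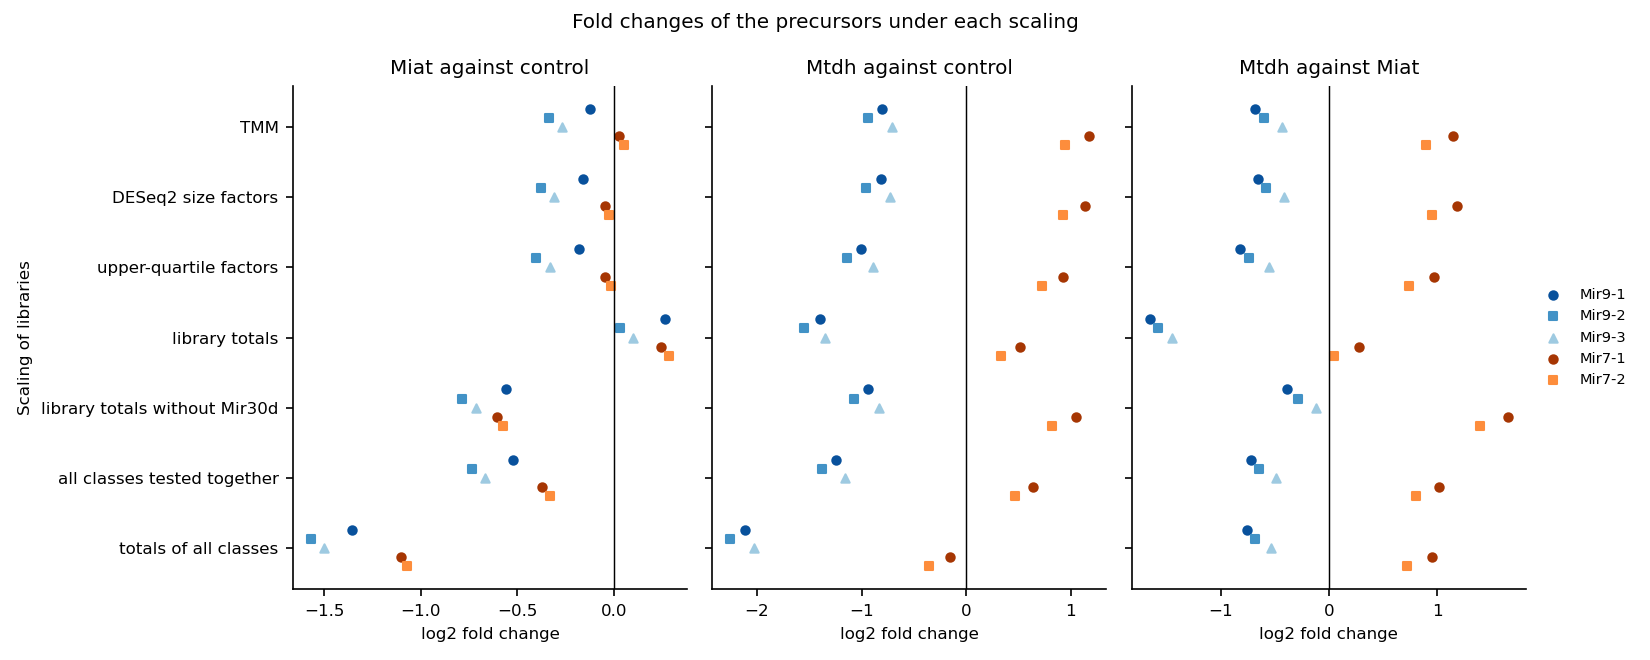
Log2 fold changes of the 5 tested members in the 3 comparisons of groups under 7 ways of scaling the libraries, 1 symbol per precursor. In Mtdh against control the miR-9 copies are below 0 under all 7 and the miR-7 copies are above 0 under all but the totals of all classes (-0.15 and -0.35), whereas in Miat against control both miRNAs change sign between scalings.

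The longer transcripts that carry or act on miR-9 and miR-7 were nearly absent from these small RNA counts. Of 13 listed long transcripts 6 were in the table, and none that hosts or is known to act on miR-9 or miR-7 had enough counts to be tested. The 1 tested was Mir17hg, the host of another cluster, miR-17-92, and its counts nearly repeat those of its precursor Mir92-1, with 136 against 135 in Miat 6-1 and 68 against 68 in Mtdh 1-2. In the fit of the 29 tested miRNAs, Mir92-1 was called in Miat, at 1.55 (SE 0.32, edgeR adjusted p = 0.00167), where 24.1% were. It was not called in Mtdh, at 0.36 (0.447). Its value without the sgMiat-6 libraries is not given here. Mir9-3hg had 6 counts in Miat 6-1 and 0 elsewhere, and C130071C03Rik had 11 counts over all libraries. Cyrano (Oip5os1) had 24 counts in all, between 0 and 5 per library. Cdr1os, which overlaps the gene of the miR-7 sponge, and Rian, an imprinted long RNA, were at 0 in all 12. Mir17hg was at 1.17 (SE 0.42, edgeR adjusted p = 0.0801) in Miat, -0.08 (0.932) in Mtdh and -1.25 (0.108) in Mtdh against Miat, where 14.0%, 9.79% and 3.5% of 143 transcripts of all classes were called. It passed in Mtdh against Miat without Mtdh 1-2 (-1.96, 0.00992), and without the sgMiat-6 libraries it was at 0.75 (0.344) in Miat and -0.83 (0.379) in Mtdh against Miat. These counts are of short fragments and say little of how much long RNA is present.

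Few miRNA precursors of the table had any count, 270 of 1116 symbols, and the other neural miRNAs were counted more often than that, 13 of 30. Of 30 other neural miRNA precursors in the table, 17 had 0 counts in all libraries, among them Mir124a-1, Mir124a-2 and Mir124a-3, the genes of the neuronal miR-124. Only Mir92b, a miRNA of neural progenitors, had enough counts to be tested. It fell in both groups, at -2.25 in Miat (SE 0.53, edgeR adjusted p = 0.00431) and -1.68 in Mtdh (SE 0.54, 0.0366), whereas miR-9 did not pass in either. Without the sgMiat-6 libraries the Miat value was -1.93 (0.111). The Mtdh call was lost without any 1 of the 4 controls, Miat 6-2, Mtdh 1-1 or Mtdh 2-1, at -1.49 to -1.98 (adjusted p from 0.0636 to 0.129), and without the sgMtdh-2 libraries it was at -1.05 (0.285). Markers of other cell types were few. The 6 epithelial and the liver precursors were at 0, the 7 of blood and microglia summed to 0 to 1 count per library, and the 3 of oligodendrocytes to 0 to 5. The single endothelial precursor reached 3 counts, and the 5 of smooth muscle and fibroblasts and the 5 of skeletal and heart muscle reached 1 count each. Mir199a-1, at 0 in all libraries, was on both the neural list and that of smooth muscle and fibroblasts. The 6 precursors of the miR-17-92 cluster, known from granule neuron progenitors and Hedgehog medulloblastoma, all had counts in some library. They summed to 32 to 59 per control library, 52 to 275 per Miat library and 8 to 140 per Mtdh library. As the libraries differ in depth, these are 10610 to 14352, 17827 to 90541 and 7808 to 25984 CPM of miRNA counts. Most of these counts were on Mir20a and Mir92-1, while Mir17 had 0 to 5 per library. The upper ends of the Miat ranges come from the sgMiat-6 libraries. Mir92-1 had 135 and 88 counts there and 34 in each sgMiat-96 library, and Mir20a had 80 and 108 against 21 and 9.

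The miRNAs with the most similar profile over the 12 libraries were found by the root mean square difference of centred log2 CPM. Nearest to summed miR-9 were Mir181a-2 at 0.774, Mirlet7c-2 at 0.801 and Mirlet7c-1 at 0.805, against an SD of 0.954 for miR-9 itself. For summed miR-7 they were Mir30a at 0.803, Mir99b at 0.863 and Mirlet7b at 0.939, against an SD of 0.978. The difference from even the nearest profile is thus most of the size of the miRNA's own variation, so no close companion was seen, and the points share library depth and scaling.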

How the data were processed

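The authors deposited, for each library, raw counts, FPKM and TPM of 4529 RefSeq non-coding transcripts. The deposited counts are whole numbers, and the deposited FPKM divide them by transcript length and by the table's total. STAR and the build GRCm38 (mm10) are named in the submitters' processing notes; for trimming, the counter, its strand setting and its treatment of reads with several matches, the tool is not given in the sources used here. The counts of 1201 miRNA entries were summed to 1116 symbols, and 29 symbols passed edgeR's filterByExpr (minimum count 10, total 15). edgeR 4.0.16 in R 4.3.3 (TMM factors 0.523 to 1.62, quasi-likelihood test, Benjamini-Hochberg adjustment over all tested features, threshold 0.05, two-sided) was fitted on all 12 libraries with a term per group or per guide. It was checked on simulated data for Miat against control, with changes larger than that of any member in these fits. The check does not show how small a change could be found. SE is the log2 fold change over the root of F. Copy shares used exact permutation tests over libraries. DESeq2 1.42.0 and limma 3.58.1 were alternatives. Named genes are the 6 members, listed hosts and neural miRNAs, and the 3 nearest profiles. Members and lists were chosen with earlier results of these data known. The library numbers were not used to pair libraries in the main fits. Over 10 pairs of guides the deviations correlated at -0.32 to 0.41, 3 of them above 0.1. With 2 libraries for each Miat and Mtdh guide, these values cannot show whether the numbers pair libraries.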

Additional observations from a re-analysis of the deposited data

Results flagged for a closer look

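Of 21 sets of 4 libraries examined (CPM of each tested member in each group, the share of Mir9-1 and the copy shares), 1 held a library far from the other 3 by Dixon's criterion. Mir7-2 in the Mtdh group was at 10652 CPM in Mtdh 2-2, against 3164 to 3815 CPM in the other 3 libraries of the group. The value comes from 9 counts in a library of 1793 miRNA counts. Chance marks about 1 in 20 such sets.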

How the results depend on the processing

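No member was called in Miat against control under any alternative other than the totals of all classes, a scaling chosen after seeing the data, which called 3 (the miR-9 copies), with or without the sgMiat-6 libraries. The other alternatives called 1.85% to 35% of all tested miRNAs there. In Mtdh against control the count of 0 became 1 (Mir9-2) with library totals of miRNA counts, with only the 2 groups compared, and without Miat 6-1 or Mtdh 2-2 (0 to 1 over single libraries left out), and 3 with totals of all classes. Of all tested miRNAs, library totals called 17.2% there and the 2 groups alone 29.2%. The fit without Miat 6-1 called 22.6% and that without Mtdh 2-2 called 17.5%. Library totals called 3 in Mtdh against Miat, where 51.7% of all tested miRNAs were called, 2 for sgMtdh-1 (24.1% of all) and 2 for sgMtdh-2 (44.8%). With Mir30d alone left out of these totals, no member was called in Mtdh against Miat (3.45% of all) or in Mtdh against control (17.2%). DESeq2 size factors called 2 for sgMtdh-1 (24.1%). Leaving out single libraries other than those of sgMtdh-1 gave 0 to 3 there, where 5.56% to 32.3% of all tested miRNAs were called. A fit with 1 sgMtdh-1 library left assumes that it varies like the other groups. Totals of all classes called 1 for sgMiat-6 (48.3% of all) and 3 each for sgMiat-96 (62.1%), sgMtdh-1 (37.9%) and sgMtdh-2 (55.2%). Summed miR-9 was called, 1 in place of 0, in Mtdh against control with library totals (-1.49, adjusted p = 0.0396, 16.7% of all summed miRNAs called) and with totals of all classes (-2.17, 0.00132, 29.2%), in Miat against control with totals of all classes (-1.49, 0.0108, 41.7%), and in Mtdh against Miat with library totals (-1.61, 0.0156, 41.7%). The listed hosts gave 0 to 1 call in Mtdh against Miat over single libraries left out.

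Of 661 single values under alternatives, 564 kept their direction and side of the threshold, 60 reversed, 21 came to pass and 16, all of Mir92b, no longer passed. Mir92b was no longer called in 13 alternatives for Mtdh (-1.98 to -0.67) and 3 for Miat (-2.29 to -1.29), the replicate block (adjusted p = 0.180 and 0.0592) and the Rn45s covariate among both. In Miat against control, Mir7-1 and Mir7-2 reversed to -0.0475 and -0.0247 with DESeq2 size factors, -0.0461 and -0.0169 with upper-quartile factors, -0.60 and -0.57 with totals without Mir30d, -1.10 and -1.07 with totals of all classes (-0.72 and -0.63 on that scale without the sgMiat-6 libraries, also chosen after seeing the data), -0.0485 and -0.0173 with DESeq2, -0.38 and -0.34 with limma-voom, -0.42 and -0.34 with guide as a random effect, -0.22 and -0.18 without a filter, -0.37 and -0.33 with all classes tested together, and -0.63 and -0.69 without the sgMiat-96 libraries. Mir7-1 was at -0.00991 with only the 2 groups compared and at -0.33 with only the most counted copy of each miRNA, an alternative chosen after seeing the data. Leaving out single libraries gave -0.75 to 0.31 for Mir7-1, -0.74 to 0.35 for Mir7-2 and -0.75 to 0.31 for summed miR-7, which was at 0.24 without the sgMiat-6 libraries. Library totals turned Mir9-1, Mir9-2 and Mir9-3 to 0.26, 0.0313 and 0.10, summed miR-9 to 0.12 and summed miR-7 to 0.24. The Rn45s share as a covariate turned Mir9-2 and Mir9-3 to 0.17 and 0.50 in Miat, where Mir7-1 and Mir7-2 moved to 2.43 and 1.85 (adjusted p = 0.244 and 0.414). In Mtdh it turned Mir9-3 to 0.0155, and Mir7-1 and Mir7-2 moved to 3.40 and 2.68 (0.0525 and 0.154). As said above, these fits cannot separate the share from the group. In Mtdh against control, totals of all classes turned Mir7-1 and Mir7-2 to -0.15 and -0.35 and summed miR-7 to -0.17, and Mir17hg ranged from -0.89 to 0.0269. In Mtdh against Miat, Mir9-3 turned to 0.0522 without the sgMiat-6 libraries and 0.35 without the sgMtdh-1 libraries, and ranged from -0.77 to 0.0264 over single libraries left out. The cause was not tested.

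The copy share of miR-9 ranged over single libraries left out from -1.83 to 3.53 points in Mtdh against control and -4.42 to 0.93 in Mtdh against Miat, and was -7.79 in the first with all libraries counted. That of miR-7 ranged from -3.55 to 2.51 in Miat against control and -5.29 to 0.78 in Mtdh against control, and with all libraries counted it was 4.12 in Mtdh against control and 5.08 in Mtdh against Miat. With the library number as a replicate block 0 members were called in each of the 3 comparisons. That fit called 10.3% of all tested miRNAs in Miat, 3.45% in Mtdh and 3.45% in Mtdh against Miat. Mir9-2 in Mtdh was at -0.79 there (adjusted p = 0.432). Copies summed also gave 0 with the block, against 20.8%, 4.17% and 4.17% of the summed miRNAs. A minimum count of 20 removed Mir7-1 and Mir7-2, and with only 2 groups compared Mir7-2 was not tested in either comparison with control, so these gave no value there. Counts were low throughout, at 0 to 49 per library for a miR-9 copy and 2 to 19 for Mir7-1 and Mir7-2.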
